A study of Homo sapiens with 5 samples.

Results

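The SCL complex is the set of proteins through which SCL, the transcription factor encoded by TAL1 (a basic helix-loop-helix protein), acts on DNA in blood progenitors. Its genes were taken as 8: TAL1, its close relative LYL1, the E protein genes TCF3, TCF12 and TCF4, the bridging factor genes LMO2 and LDB1, and the corepressor gene CBFA2T3. All probe sets that the platform's annotation assigns to exactly 1 of these genes were used, which gave 30 of the 19065 probe sets with 1 symbol and of 22283 in all. The samples were TF-1 cells, a human erythroleukaemia line that is maintained in GM-CSF, carrying either the MSCV-GFP retroviral vector alone (vector cells) or the vector with DbSCL, an SCL mutant that does not bind DNA. After a night without growth factor the cells received GM-CSF (5 ng/mL), Steel factor (SF, the ligand of c-Kit, 20 ng/mL) or erythropoietin (Epo, dose not in the labels) for 6 h. There were 5 groups of 1 array each: vector GM-CSF, vector SF, vector Epo, DbSCL SF and DbSCL Epo. No group went without cytokine, DbSCL was not combined with GM-CSF, and the labels do not say whether the cells were sorted for GFP or cloned. With 1 array per group there is no replicate error and no test. Each difference below is between single arrays, and its size is read against all other probe sets.

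SCL pairs with an E protein, and the pair contacts a short DNA motif, the E-box, through the basic regions of both partners. LMO2 does not bind DNA itself but links the pair to LDB1, which holds several such units together, often beside a GATA factor on a neighbouring GATA motif. CBFA2T3 (also called ETO2) joins the complex through the E protein and recruits histone deacetylases, and LYL1 can stand in for SCL in some blood cells.

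Promoters are shown for the 3 genes that were higher by at least 1.5-fold under both SF and Epo than under GM-CSF in the deposited values (TAL1, TCF12 and CBFA2T3), and for LYL1 as the relative of TAL1 whose signal barely varied. This choice was made after the values were seen. The sequences are RefSeq's, build GRCh38.p14, and run 5′ to 3′ on the gene's strand from 250 bases before to 50 bases after an annotated start. Capitals mark E-boxes (CANNTG, the same on both strands) and GATA on either strand (GATA or TATC).

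TAL1, chr1:47232286-47232585, minus strand: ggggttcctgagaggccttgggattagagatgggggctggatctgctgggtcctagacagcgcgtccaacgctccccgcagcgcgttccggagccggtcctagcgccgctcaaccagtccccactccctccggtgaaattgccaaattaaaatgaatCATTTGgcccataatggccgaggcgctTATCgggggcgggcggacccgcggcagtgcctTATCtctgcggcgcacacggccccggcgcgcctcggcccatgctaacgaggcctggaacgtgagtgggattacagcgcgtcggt

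LYL1, chr19:13102809-13103108, minus strand: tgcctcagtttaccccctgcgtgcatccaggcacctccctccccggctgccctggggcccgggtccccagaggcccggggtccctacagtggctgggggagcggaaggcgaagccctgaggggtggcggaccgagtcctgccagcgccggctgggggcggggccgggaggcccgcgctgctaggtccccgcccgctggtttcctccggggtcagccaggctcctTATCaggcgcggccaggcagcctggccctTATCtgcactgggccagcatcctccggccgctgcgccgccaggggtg

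TCF12, chr15:56917840-56918139, plus strand: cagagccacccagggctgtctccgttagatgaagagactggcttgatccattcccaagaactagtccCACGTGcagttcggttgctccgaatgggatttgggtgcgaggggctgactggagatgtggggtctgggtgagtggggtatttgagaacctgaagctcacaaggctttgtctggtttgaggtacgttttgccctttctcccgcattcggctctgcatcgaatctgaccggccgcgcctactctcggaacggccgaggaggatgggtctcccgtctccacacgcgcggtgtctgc

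CBFA2T3, chr16:88941301-88941600, minus strand: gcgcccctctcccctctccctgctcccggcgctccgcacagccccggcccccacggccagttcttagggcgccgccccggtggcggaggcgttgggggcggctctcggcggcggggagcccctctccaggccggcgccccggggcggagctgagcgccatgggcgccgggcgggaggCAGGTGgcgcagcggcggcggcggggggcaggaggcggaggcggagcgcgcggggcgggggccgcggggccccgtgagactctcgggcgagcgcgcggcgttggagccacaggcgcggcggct

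The TAL1 window holds the E-box CATTTG, beginning at -93 from the start, and GATA on the opposite strand at -66 and -34. The LYL1 window holds GATA on the opposite strand at -26 and 3 and no E-box. TCF12 carries the E-box CACGTG at -183 and CBFA2T3 the E-box CAGGTG at -73, and neither holds GATA in these letters. The table lists 2 starts for TAL1 and 5 for TCF12, of which the most upstream is printed, and the second TAL1 window holds neither motif. Over 21 windows of 7 of the 8 genes (LMO2 had none here), 11 hold an E-box and 10 hold GATA, or 52.4% and 47.6%. TCF4 supplies 10 of these windows, 7 with an E-box and 6 with GATA, and TCF12 supplies 5, so TCF4 and TCF12 weigh most. Among all 35116 windows of this length the shares are 68.7% and 49.7%, so both motifs are common and were not more frequent in the windows of the members.

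Signals are log2 values as the authors deposited them, and a step of 1 is 2-fold. Probe sets of different genes were not set against each other, since probe sets differ in how brightly they bind. Values below the floor, the 40th percentile of all non-control signals (4.45), were raised to it, and a probe set entered a comparison when at least 1 of its 2 arrays was above the floor. Of the 30 probe sets 26 exceeded the floor somewhere and 23 on every array. The remaining 4, which were 2 of TCF3 and 1 each of TCF12 and TCF4, were at or below it throughout. A value identical on at least 2 arrays occurred in 11 of the 30 probe sets and in 58.3% of all probe sets with 1 symbol, so a difference of exactly 0 is frequent in this table.

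Of the erythroid markers listed, KLF1, GATA1, EPOR and TFRC were above the floor on all 5 arrays. GFI1B was below it on all, and the globins HBG1 and HBA1 had no probe set with 1 symbol. The progenitor markers CD34, KIT and MYB were above it too. Of 5 monocyte and granulocyte markers CD14, ELANE and CSF1R were below it, MPO was above it on 4 arrays at no more than 4.55, and LYZ was above it on all, between 5.58 and 6.15, while 4 of 5 lymphoid markers were above it on every array, with a list mean between 5.37 (vector Epo) and 5.69 (vector GM-CSF). Of 5 megakaryocyte markers 4 were above the floor, with a list mean between 6.02 and 6.25. The 3 mast cell markers were above it, with a list mean between 5.63 (vector GM-CSF) and 6.0 (DbSCL SF). The arrays were unlike in their controls. The mean of 18 hybridization control probe sets was 10.53 on vector GM-CSF, 10.02 on vector SF, 9.58 on vector Epo, 10.57 on DbSCL SF and 9.78 on DbSCL Epo. The 18S ribosomal RNA signal was 9.02, 8.22, 7.45, 8.32 and 7.99 in the same order. These controls therefore separate vector GM-CSF from the other vector arrays and each DbSCL array from the vector array of its cytokine, and their part in the differences below was not tested.

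**Figure D1:**
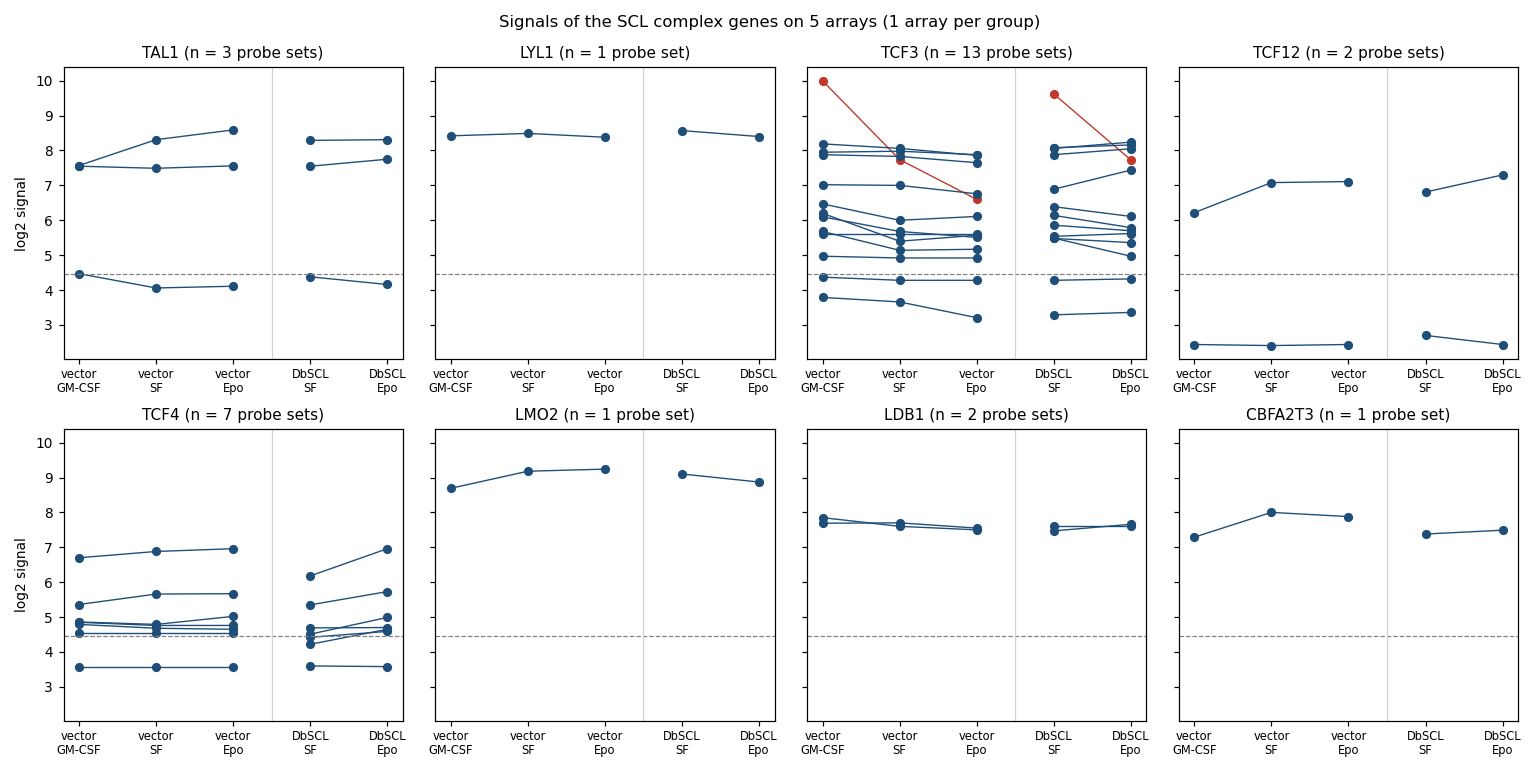
Log2 signal (vertical axis) of every probe set of the 8 genes on the 5 arrays, 1 array per group, with lines joining arrays of the same cells. The dashed line is the floor of 4.45, and the TCF3 probe set 202648_at is in red. TAL1, TCF12, LMO2 and CBFA2T3 are lowest in vector cells under GM-CSF in their brightest probe set. The brightest probe sets of TCF3 (202648_at) and LDB1 are highest there. Other probe sets of these genes differ. The second TAL1 probe set is lowest on vector SF, LDB1 35160_at is highest on vector SF, and TCF3 210776_x_at is highest on DbSCL Epo. Of all probe sets compared, 46.1% were higher under SF and 44.5% under Epo than under GM-CSF in vector cells. The share of all probe sets lowest on vector GM-CSF was not counted. The probe set 202648_at spans 3.39 while no other TCF3 probe set spans more than 0.80.

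TAL1 has 3 probe sets. The brightest, 206283_s_at, read 7.57 on vector GM-CSF, 8.31 on vector SF and 8.59 on vector Epo, and 8.29 and 8.31 on DbSCL SF and DbSCL Epo. The GM-CSF array was thus the low one, and the remaining arrays lay within 0.31 of each other, DbSCL cells included. The second, 216925_s_at, read 7.55, 7.49, 7.56, 7.55 and 7.75 in the same order and hardly distinguished the arrays. The third, 216928_at, was at 4.47 under GM-CSF and below the floor elsewhere. For SF and Epo against GM-CSF the first gave log2 differences of 0.73 and 1.02 (2.03-fold) and the second -0.06 and 0.02. The 1.02 for Epo became 0.68 under quantile normalization and 0.76 under cyclic loess, short of 2-fold in both, and the 0.73 for SF became 0.50 and 0.53, short of 1.5-fold. The gap of 1.0 between the probe sets for Epo is wide. Among 1560 genes with exactly 2 probe sets above the floor on every array, the median gap was 0.25 and 4.55% had one as wide. DbSCL is itself an SCL transcript, yet the TAL1 signals of DbSCL cells differed from those of vector cells by -0.02 and 0.06 under SF and by -0.29 and 0.19 under Epo. Whether these probe sets cover the expressed construct was not determined here.

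LYL1, read by the single probe set 210044_s_at, was 8.42 on vector GM-CSF, 8.49 on vector SF and 8.38 on vector Epo, and 8.57 and 8.40 on DbSCL SF and DbSCL Epo. Its 5 values spanned 0.20, the narrowest span among the brightest probe sets of the 8 genes. None of its differences exceeded 0.17 in size, while the median size over all probe sets ran from 0.09 to 0.24 in the 6 comparisons.

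TCF3 encodes the E proteins E12 and E47. It has 13 probe sets, of which 11 were above the floor on every array, and they did not share one pattern. The brightest, 202648_at, read 10.00 on vector GM-CSF, 7.74 on vector SF and 6.60 on vector Epo, and 9.62 and 7.73 on DbSCL SF and DbSCL Epo. It was high on vector GM-CSF and DbSCL SF, low on vector Epo, and in between on the other two arrays. The hybridization controls were also highest on vector GM-CSF and DbSCL SF and lowest on vector Epo. This probe set passed 2-fold in each of the 6 comparisons, and its assignment to TCF3 rests on the platform's annotation alone. The sequence it was designed from is not in the RefSeq transcript table used here, so whether it reads TCF3 or another gene was not determined.

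The 10 other TCF3 probe sets formed loose patterns of smaller size. In 4 of them (209153_s_at, 210776_x_at, 213730_x_at and 213811_x_at) DbSCL Epo was the highest array and vector Epo the lowest. The first of these read 7.02, 7.0 and 6.76 on the vector GM-CSF, SF and Epo arrays, and 6.89 and 7.44 on the DbSCL SF and DbSCL Epo arrays. The DbSCL differences of these 4 under Epo were 0.68, 0.38, 0.40 and 0.27, and under SF they were -0.12, 0.00, 0.05 and 0.10. In 4 others (213731_s_at, 213809_x_at, 216645_at and 216647_at) vector GM-CSF was the highest array and DbSCL SF the next. Of these 213809_x_at varied most, with 6.20, 5.40 and 5.57 in vector cells and 6.14 and 5.79 in DbSCL cells. Their DbSCL differences were 0.18, 0.75, 0.35 and 0.39 under SF, and 0.20, 0.23, 0.19 and -0.01 under Epo. The hybridization controls were also highest on vector GM-CSF and DbSCL SF, the highest arrays of these 4. In 213731_s_at vector Epo was the lowest array, as in the controls. The part of this was not tested. The last pair were 209152_s_at, highest on DbSCL SF at 5.49 and between 4.92 and 4.97 elsewhere, and 215260_s_at, which read 5.62 on 4 arrays and 5.54 on DbSCL SF.

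The direction was shared more widely than the size. For Epo against GM-CSF 10 of the 11 TCF3 probe sets were lower and 1 was equal, with a median of -0.34, where 48.8% of all probe sets were lower and the median was 0. For DbSCL against vector cells 8 of 11 were higher under SF (median 0.18) and 9 of 11 under Epo (median 0.23), where 45.9% and 41.6% of all probe sets were higher. Without 202648_at these medians were -0.30, 0.14 and 0.21 over 10 probe sets. The smallest differences for Epo against GM-CSF depended on the processing. With column medians subtracted, 209152_s_at, 213811_x_at and 215260_s_at were higher under Epo, by 0.03, 0.01 and 0.08. Under cyclic loess 209152_s_at and 215260_s_at were higher by 0.07 and 0.09. Probe sets of 1 gene can share target sequence and are not independent readings, and 4 of the 11 have the suffix _x_at, which marks probes that also match other transcripts. The range of the differences over the TCF3 probe sets was 3.39 for Epo against GM-CSF, against a median range of 0.49 for 656 genes with at least 3 probe sets. No other of these genes had a range as wide. Without 202648_at the range was 0.63, and 36.6% of these genes had one at least as wide.

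**Figure D2:**
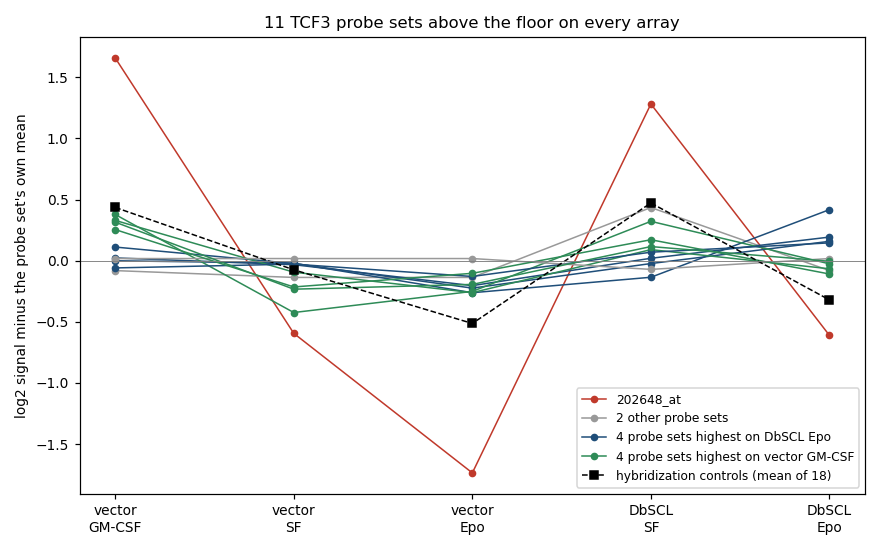
Log2 signal minus each probe set's own mean over the 5 arrays (vertical axis), for the 11 TCF3 probe sets above the floor on every array and for the mean of 18 hybridization control probe sets (black squares). The probe set 202648_at (red) was highest on vector GM-CSF and DbSCL SF and lowest on vector Epo, as the controls were at a smaller scale. The other probe sets stayed within 0.44 of their means. Among them 213731_s_at was also highest on vector GM-CSF and DbSCL SF and lowest on vector Epo.

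TCF12 encodes the E protein HEB. Its probe set 208986_at read 6.22 on vector GM-CSF, 7.08 on vector SF and 7.11 on vector Epo, and 6.81 and 7.30 on DbSCL SF and DbSCL Epo. As for the brightest TAL1 probe set, vector GM-CSF was the lowest array, with differences of 0.87 (1.82-fold) for SF and 0.89 (1.85-fold) for Epo. Among all probe sets compared, 1.69% differed by as much between SF and GM-CSF and 5.24% between Epo and GM-CSF. Such shares describe these arrays and are not error rates. With DbSCL the signal differed by -0.28 under SF and 0.19 under Epo, so the directions differed. These sizes were reached by 27.6% and 32.4% of all probe sets compared. The second TCF12 probe set, 215611_at, lay between 2.41 and 2.70 and was below the floor on every array.

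TCF4 encodes the E protein E2-2, and 6 of its 7 probe sets exceeded the floor on some array. The brightest, 212386_at, read 6.70, 6.88 and 6.96 on the vector GM-CSF, SF and Epo arrays, and 6.18 and 6.96 on the DbSCL SF and DbSCL Epo arrays. The DbSCL SF array was the low one, and vector Epo and DbSCL Epo were equal to the second decimal. A second probe set, 213891_s_at, read 5.36, 5.66 and 5.67 in vector cells and 5.35 and 5.73 in DbSCL cells. DbSCL SF was the lowest array in all 6 TCF4 probe sets above the floor on any array. The share of all probe sets lowest on DbSCL SF was not counted, so this is not shown to be particular to TCF4. Against vector cells under SF the 6 differences were -0.70, -0.31, -0.28, -0.24, -0.10 and -0.07, where 42.8% of all probe sets were lower. Of all probe sets, 2.99% differed by as much as 212386_at. Under Epo the same 6 lay between -0.06 and 0.06. For 212386_at the DbSCL difference under SF minus that under Epo was -0.70, and this contrast was not tested. Of the 6 probe sets, 4 had signals between 4.22 and 5.02, near the floor. The beta-actin 3′ minus 5′ signal rises when RNA or its copies are shorter. It was 3.33 on DbSCL SF, 3.01 on DbSCL Epo and between 1.89 and 2.74 on the vector arrays. For GAPDH this signal was 2.53 on DbSCL SF, 2.44 on DbSCL Epo and between 1.58 and 2.19 on the vector arrays. The part of these signals was not tested.

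LMO2, read by 204249_s_at, was 8.69 on vector GM-CSF, 9.18 on vector SF and 9.24 on vector Epo, and 9.10 and 8.87 on DbSCL SF and DbSCL Epo. Vector GM-CSF was again the lowest array. The differences from GM-CSF were 0.49 (1.40-fold) for SF and 0.56 (1.47-fold) for Epo, and 13.7% and 17.0% of all probe sets differed by as much. They were 0.24 and 0.21 under quantile normalization, and 0.28 and 0.29 under cyclic loess. With DbSCL the signal differed by -0.08 under SF and -0.37 under Epo, the latter -0.24 under quantile normalization.

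LDB1 has 2 probe sets. One, 203451_at, read 7.85, 7.60 and 7.5 on the vector GM-CSF, SF and Epo arrays, and 7.60 on both DbSCL arrays. The other, 35160_at, read 7.69, 7.70 and 7.55 in vector cells and 7.47 and 7.66 in DbSCL cells. No array stood out in both. The largest difference of either in size was -0.35, for Epo against GM-CSF, where the second gave -0.14. Quantile normalization made the first -0.66 and cyclic loess -0.56. Under Epo the DbSCL difference was 0.11 in both.

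CBFA2T3, read by 208056_s_at, was 7.29 on vector GM-CSF, 8.0 on vector SF and 7.88 on vector Epo, and 7.38 and 7.49 on DbSCL SF and DbSCL Epo. The vector arrays under SF and Epo were high, and both DbSCL arrays lay nearer to vector GM-CSF. The differences from GM-CSF were 0.71 (1.63-fold) for SF and 0.59 (1.5-fold) for Epo. Quantile normalization gave 0.50 and 0.29 and cyclic loess 0.54 and 0.38, all short of 1.5-fold. With DbSCL it was lower by 0.62 log2 under SF (1.54-fold) and by 0.39 under Epo (1.31-fold), sizes reached by 4.29% and 10.5% of all probe sets. The SF value was -0.54 under quantile normalization and -0.56 under cyclic loess, short of 1.5-fold. Under Epo the value was -0.30 under quantile normalization. CBFA2T3 was the single gene of the 8 whose brightest probe set was lower with DbSCL by more than 0.30 log2 under both cytokines. The share of all genes lower by as much under both was not counted. ID2 and KIT, taken from other lists below, were also lower by more than this under both. Both DbSCL arrays also had higher 18S signals than the vector array of the same cytokine. They were 8.32 against 8.22 under SF and 7.99 against 7.45 under Epo, so the gap was the smaller under SF. Vector GM-CSF had the highest of all, 9.02, and the part of this was not tested.

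**Figure D3:**
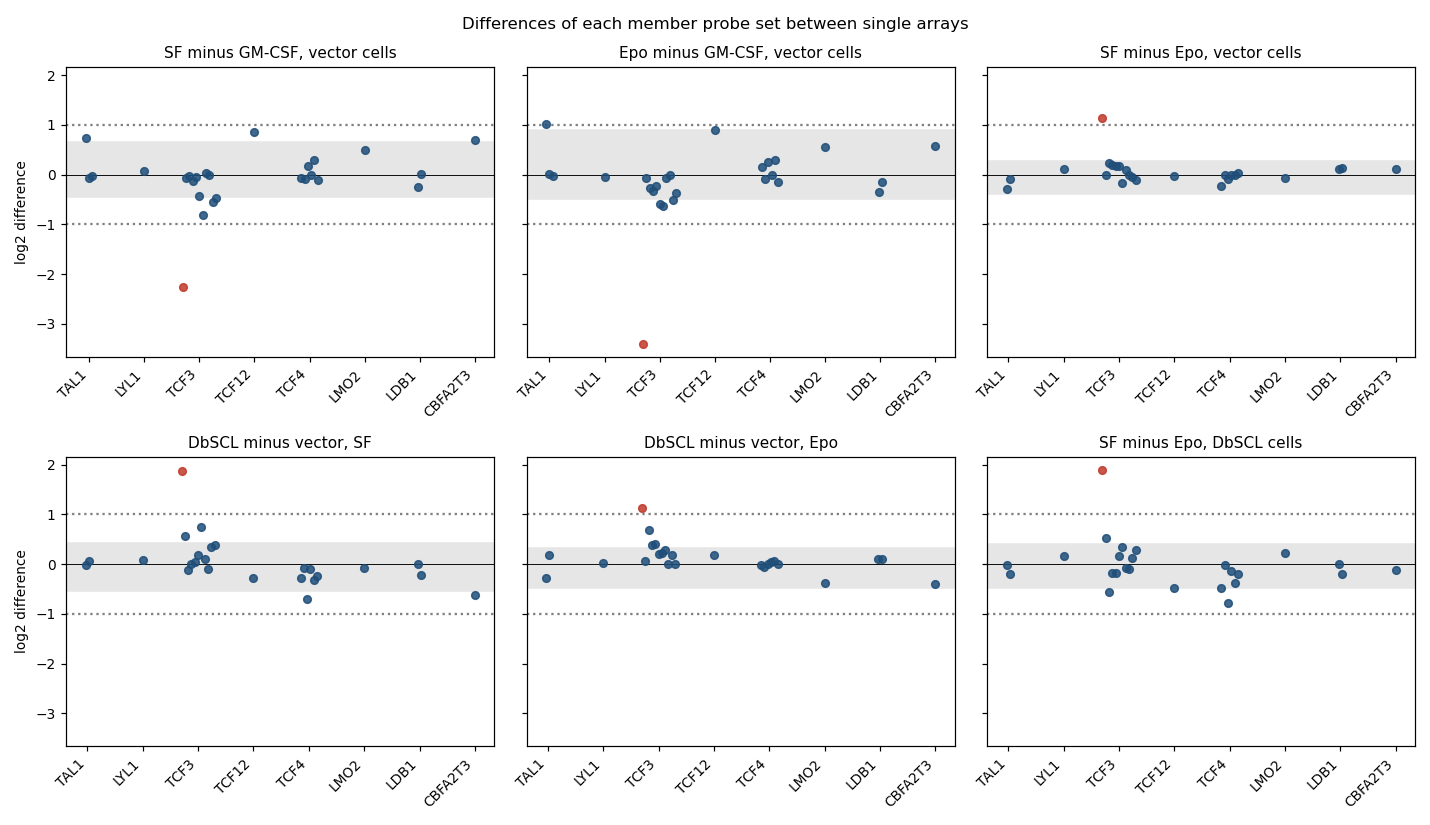
Log2 difference (vertical axis) of each member probe set in the 6 comparisons, with the genes along the horizontal axis. Grey bands hold the middle 90% of all probe sets compared, dotted lines mark 2-fold, and the TCF3 probe set 202648_at is in red. Apart from 202648_at, only TAL1 for Epo against GM-CSF (1.02) reached 2-fold.

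Counted over the 30 probe sets, calls at 2-fold were few. For SF against GM-CSF 1 of 26 compared was lower and 0 were higher, where 0.0493% and 0.617% of all probe sets were. For Epo against GM-CSF 1 was lower and 1 higher, beside 0.172% and 3.42%. For SF against Epo in vector cells 1 of 25 was higher, beside 0.017%. DbSCL against vector cells gave 1 of 25 higher under SF and 1 under Epo, beside 0.025% and 0.11%, and SF against Epo in DbSCL cells gave 1 of 25 higher, beside 0.0333%. Every one of these was 202648_at except the higher call for Epo, which was TAL1. Without 202648_at the counts were 0 in all comparisons but Epo against GM-CSF, where 1 stayed. At 1.5-fold, TAL1, TCF12 and CBFA2T3 were the 3 higher probe sets for SF against GM-CSF (background 7.06%) and again for Epo against GM-CSF (12.8%), 2 comparisons that share the GM-CSF array. After quantile normalization or cyclic loess CBFA2T3 reached 1.5-fold in neither comparison and TAL1 did not for SF, while LDB1 203451_at and TCF3 210776_x_at fell by 0.66 and 0.64 for Epo against GM-CSF under quantile normalization. The lower ones were 202648_at and TCF3 213809_x_at for SF against GM-CSF (1.34%), and these with TCF3 213731_s_at for Epo against GM-CSF (2.48%). Both TCF3 probe sets other than 202648_at were short of 1.5-fold for Epo under cyclic loess (-0.56 and -0.52) and with column medians subtracted (-0.55 and -0.51). At the same size with DbSCL under SF, CBFA2T3 (in the deposited values but not under quantile normalization or cyclic loess) and TCF4 212386_at were the 2 lower (3.9%), and 202648_at and TCF3 213809_x_at the 2 higher (1.47%). Under Epo there were 0 lower (2.75%), and the 2 higher were 202648_at and TCF3 209153_s_at (0.744%).

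The median over the members stayed near that of all probe sets, which was 0 in each comparison. It was -0.04 for SF against GM-CSF, -0.06 for Epo against GM-CSF, 0.00 for SF against Epo in vector cells and -0.09 in DbSCL cells. With DbSCL it was -0.02 under SF and 0.06 under Epo. TCF3 supplies 11 of the probe sets compared and weighs most in these medians.

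**Figure D4:**
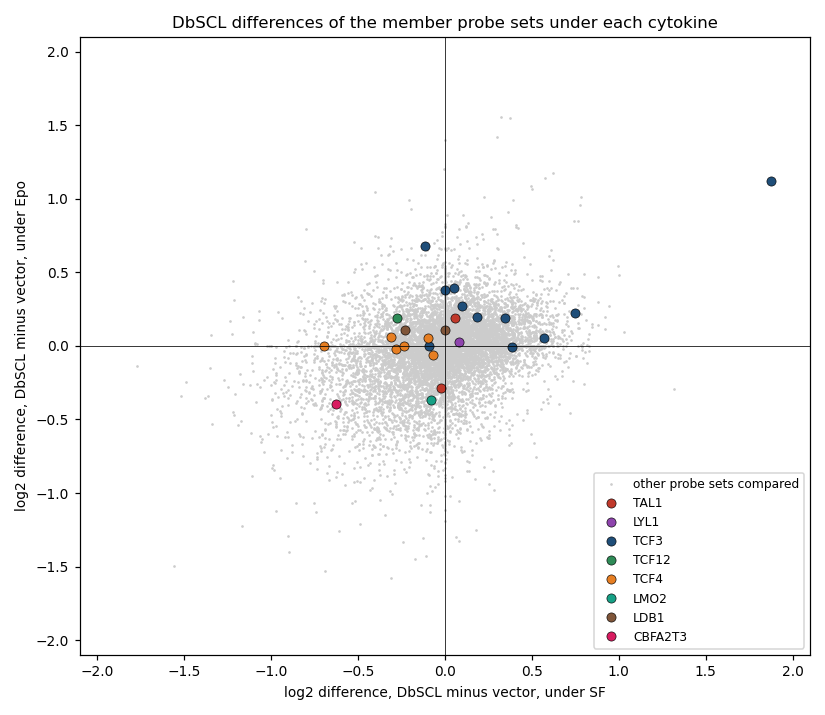
Log2 difference of DbSCL minus vector cells under SF (horizontal axis) and under Epo (vertical axis) for the member probe sets, in colours by gene, over the other probe sets compared (grey). CBFA2T3 lies in the lower left, TCF4 lies left of 0 under SF and near 0 under Epo, and the TCF3 probe sets spread to the right and upward, with 202648_at at 1.88 and 1.12.

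Genes with array profiles most like those of members were ranked by the root mean square difference after each probe set's own mean was subtracted, over 5 arrays, for member probe sets spanning at least 1. For TAL1 206283_s_at the 5 nearest were VPS26A, SH3GLB1, RDX, GLG1 and NEDD4L (0.02 to 0.03 log2), and 174 of 12403 other probe sets lay within 0.10. For TCF12 208986_at they were ZMYM2, RNF11, AGTPBP1, RAD51AP1 and GOLGA5 (0.03 to 0.07), with 20 of 12405 within 0.10. Both profiles were therefore found in other genes too, that of TCF12 in fewer probe sets. For 202648_at the nearest were RPLP2 (0.47), EEF1D (0.66), COX5B (0.68), MRPS12 (0.70) and RPS10 (0.74), and no probe set lay within 0.10. These genes encode ribosomal proteins of the cytosol and of mitochondria, a translation elongation factor subunit and a respiratory chain subunit.

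For 4 of those 5 the probe set departed from 3 others of the same gene. The RPLP2 probe set read 8.45, 6.79 and 5.83 on the vector GM-CSF, SF and Epo arrays, and 7.56 and 6.68 on the DbSCL SF and DbSCL Epo arrays, a span of 2.61. Its gene has 1 other probe set above the floor, between 4.55 and 5.08 and so too near the floor for a comparison of spans. The RPS10 probe set of this kind read 8.82, 7.58, 6.83, 7.94 and 7.75 in the same order, a span of 1.99, while its 3 other probe sets spanned 0.04 to 0.17. For COX5B the span was 1.72 against 0.16 to 0.60 in 3 others, and for EEF1D 2.07 against 0.33 to 0.71 in 3 others. For MRPS12 it was 1.44 against 0.27 to 0.77 in 3 others.

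Further proteins known to act with the complex were followed through a list of 24 genes, of which 20 had a probe set with 1 symbol and 16 were compared. With DbSCL 11 of the 16 were lower and 5 higher under SF, with a median of -0.31, where 41.6% of all genes were lower and 46.6% higher. Under Epo 11 were again lower and 5 higher, with a median of -0.08, where 46.4% of all genes were lower and 41.5% higher. The median of all genes was 0 in both, and none of the 16 reached 2-fold, where 0.343% of all genes under SF and 0.275% under Epo were lower by as much. GATA1, the erythroid GATA factor of the complex, read 6.76, 6.87 and 6.76 on the vector GM-CSF, SF and Epo arrays, and 6.57 and 6.69 on the DbSCL SF and DbSCL Epo arrays. It varied by no more than 0.30 in any comparison. The LDB1-binding gene SSBP3 read 6.54, 6.80, 6.54, 6.10 and 6.46 in that order, lowest on DbSCL SF as GATA1 and TCF4 were. It is named after its values were seen. Against GM-CSF, 1 of 16 reached 2-fold under SF, the coactivator gene CREBBP (1.01), and 1 under Epo, the corepressor gene RCOR1 (1.02). Of all genes, 0.573% and 3.46% were higher by 2-fold. Both values lie at the threshold, and list genes were not recomputed under the other normalizations.

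Among 10 inhibitors and other helix-loop-helix genes, 9 had a probe set with 1 symbol but at most 5 were compared. ID2, which traps E proteins in pairs that do not bind DNA, read 7.20, 8.11 and 8.28 on the vector GM-CSF, SF and Epo arrays, and 6.56 and 6.79 on the DbSCL SF and DbSCL Epo arrays. Both DbSCL arrays were below all vector arrays, an order CBFA2T3 did not show. This ID2 probe set differed by -1.56 with DbSCL under SF and by -1.49 under Epo. A second ID2 probe set above the floor differed by -0.67 and -0.75, short of 2-fold. ID2 was the 1 gene lower by 2-fold, of 5 compared under SF and 4 under Epo, where 0.343% and 0.275% of all genes were. In vector cells the first ID2 probe set was higher under Epo than under GM-CSF by 1.08, past 2-fold, and the second by 0.51. Of all genes 3.46% were higher by 2-fold in that comparison. ID1, also named after its values were seen, read 6.92, 7.19, 7.39, 6.95 and 6.85 in the same order. Of 20 reported SCL target genes 14 had a probe set with 1 symbol and 13 were compared. Their median was 0.07 with DbSCL under SF and -0.02 under Epo, with 8 higher and 3 lower under SF, 4 higher and 7 lower under Epo, to be read beside the shares of all genes given for the partners. None was at 2-fold, where 0.0118% of all genes under SF and 0.0957% under Epo were higher by as much. KIT, the c-Kit receptor gene, read 6.79, 7.04, 7.02, 6.33 and 6.62, and so was also lower on both DbSCL arrays than on the vector arrays, by 0.70 log2 under SF and 0.40 under Epo. The erythroid factor gene KLF1 read 7.70 under GM-CSF and 7.78 on the 4 other arrays.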

How the data were processed

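TF-1 RNA was labelled with biotin and read on Affymetrix arrays, 1 per group, per the labels' protocols. The authors deposited 1 log2 signal per probe set and array. That the scale is log2 was read from the values (2.08 to 13.77), and the summary method, any normalization between arrays, software and versions are not given in the sources used here. A normalization can compress differences and hide shifts shared by most genes. Column medians ran from 4.90 to 4.99, so values were used as deposited. Symbols came from the platform's annotation, and all 30 member probe sets carried gene identifiers with the same symbol in RefSeq's table, which does not check what the probes bind. A probe set was called at 2-fold, and where 1 stood for a gene it was the one with the highest mean. The named genes were the members, genes of like profile, list genes past 2-fold, and GATA1, KIT and ID2. Cell type markers, KLF1 among them, were listed too, and SSBP3 and ID1 were added after their values were seen. A further gene of the rule is not reported here. Members, lists and alternatives were chosen with earlier results of these data known. Alternatives were computed with limma 3.58.1 in R 4.3.3 and pandas 2.3.3, and the counting was tested on simulated data. The number of arrays limits the precision, and no p-value was computed.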

Additional observations from a re-analysis of the deposited data

How the results depend on the processing

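No paired analysis was possible because the labels give no replicate numbers, each group has 1 array, and no result comes from a test. An additive fit of cytokine and construct over the 4 arrays under SF and Epo was not run. Under quantile normalization, subtraction of column medians and cyclic loess, all 44 differences of member probe sets of at least 0.3 in size kept their sign, and the largest moves were 0.35, 0.08 and 0.27. The count of member probe sets at 2-fold for Epo against GM-CSF was 2, and it was 1 under quantile normalization and under cyclic loess, where TAL1 no longer counted. Leaving out _x_at probe sets, the higher floor (5.42) or no floor changed no count. At 1.5-fold the counts were 5 for SF against GM-CSF, 6 for Epo against GM-CSF, 4 for DbSCL under SF, 2 for DbSCL under Epo and 2 for SF against Epo in DbSCL cells. It stayed at 1 for SF against Epo in vector cells. Without 202648_at, a choice made after seeing the data, the 2-fold counts of probe sets and of genes were 1 for Epo against GM-CSF and 0 elsewhere. With 1.5-fold as well they were 4, 5, 0 and 3 for SF against GM-CSF, Epo against GM-CSF, SF against Epo in vector cells and DbSCL under SF. With the mean of all probe sets of a gene, or their median, 0 of the 8 genes reached 2-fold in any comparison. Single arrays and probe sets near the floor limit every value.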
